A study of Mus musculus with 12 samples.

Results

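The genes described here were 10 components of cytokine signalling through the IL-6 and IL-1 receptor families, taken from a table of 22899 mouse genes by their symbols: Il6ra, Lifr, Osmr, Il6st, Jak1, Stat3, Socs3, Il1r1, Il1rap and Il1rn. All 10 had values in every library. The libraries came from tissue labelled kidney of adult Kunming mice, an outbred stock, labelled female, aged 6 to 8 weeks and weighing 18 to 22 g. The 4 groups held 3 mice each: colistin (15 mg/kg/day), control (saline), colistin + 7-HC (both drugs at those daily doses) and 7-HC (50 mg/kg/day), all treated for 7 days by intraperitoneal injection. Colistin is a last-line polymyxin antibiotic that can injure the kidney, and 7-HC (7-hydroxycoumarin) is a plant coumarin that the study tested as a protectant. The solvent of 7-HC contained DMSO, which mice of the control and colistin groups did not receive, so 7-HC and its solvent cannot be told apart.

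Cytokines of the IL-6 family bind receptor chains such as the IL-6 receptor alpha chain (Il6ra), the LIF receptor (Lifr) or the oncostatin M receptor (Osmr). These chains pair with the shared signalling chain gp130 (Il6st). The kinase JAK1 then phosphorylates the transcription factor STAT3, and STAT3 activates its target genes, among them Socs3, whose product binds gp130 and JAK1 and shuts the signal down. IL-1 binds its receptor IL-1R1 (Il1r1), which recruits the accessory chain (Il1rap) and signals through MyD88 to NF-kB, while the receptor antagonist (Il1rn) occupies IL-1R1 without a signal. In liver both pathways are known for driving the acute-phase response, in which hepatocytes secrete large amounts of plasma proteins.

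The table names no unit, and its values were taken as FPKM (fragments scaled to transcript length and library size); levels of different genes are set side by side on the assumption that the values are per length. A gene entered the test, limma on log2(FPKM + 0.5), where 3 or more libraries held it at 1 FPKM or above, which 10764 genes did, and it was counted as changed where the adjusted p was under 0.05. The pseudocount of 0.5 makes the fold changes of low genes smaller than the ratio of their means. All 10 genes were tested. Osmr reached 1 FPKM in 8 of the 12 libraries and passed the filter only with those given colistin, where it was high. Il1rn reached it in 10 libraries and the other 8 genes in all 12.

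The promoters of the genes were read from RefSeq (GRCm38.p6) as the 250 bases before annotated starts, which gave 14 windows for the 10 genes. For Lifr, Il1r1, Socs3 and Osmr the windows lie inside the gene spans given below, so not every start was searched. The STAT motif TTCNNNGAA, searched on both strands, was present in 7.02% of 32841 mouse promoters of this length and in 1 of the 14 windows, that of Socs3. Its 29 bases around the match, at chr11:117969502-117969530 on the minus strand, are shown because Socs3 is the direct feedback target of STAT3. The match lies 154 to 146 bases before the RefSeq start of its window. In the GENCODE annotation the stretch overlaps no exon and lies within an intron of 1 of 3 Socs3 transcripts. It ends 51 bases before the nearest GENCODE start and 316 bases before that of transcript Socs3-201. The capitals mark the motif:
Socs3: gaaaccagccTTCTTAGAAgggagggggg

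The stricter STAT form TTCCNGGAA, a subset of the motif above, was present in 0.913% of promoters and in none of these windows. The NF-kB motif GGGNNNNNCC was much commoner, in 45.8% of all promoters and in 10 of the 14 windows. These windows belonged to 8 of the 10 genes, with no match for Stat3 or Il6st. Il1rn is shown because it had the largest fold change of the 10 genes. Its 240 bases at chr2:24336610-24336849 on the plus strand lie before the first of its 3 RefSeq starts. The last 10 bases of that window were left out because some lie in a GENCODE first exon, so no exon is overlapped. The stretch ends 4 bases before the nearest GENCODE start and 8461 bases before that of another transcript. The capitals mark the NF-kB motif, 54 to 45 bases before the first RefSeq start. Another NF-kB match lies 51 to 42 bases before a later RefSeq start and is not shown. These matches describe letters and were not tested for binding:
Il1rn: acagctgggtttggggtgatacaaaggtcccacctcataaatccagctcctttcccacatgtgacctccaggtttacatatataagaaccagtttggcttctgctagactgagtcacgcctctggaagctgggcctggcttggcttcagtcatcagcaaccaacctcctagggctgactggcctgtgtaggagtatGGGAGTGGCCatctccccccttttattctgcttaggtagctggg

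The defining markers did not bear out the labelled tissue. Of 14 nephron markers 8 had values, and their sum lay between 0.11 and 0.44 FPKM in the 12 libraries, with Slc5a2, Kap, Slc12a1, Aqp2 and Pax2 among those blank throughout. The 10 hepatocyte markers summed to 39748 to 42265 FPKM in colistin, against 70346 to 83613 in control, and to 43433 to 50050 in colistin + 7-HC, against 86551 to 90437 in 7-HC. The libraries summed to between 517984 and 597354 FPKM, with 10036 to 10392 genes at 1 FPKM or more. Colistin replicate 2 stood apart from the other 2 colistin libraries. Over the 3753 genes called in colistin against control without it, it lay a median of 63.2% of the way from the control mean to the mean of the other 2 on the log2 scale, against 117% for replicate 1 and 97.9% for replicate 3, each over the genes called without that library.

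Colistin against control asked how the antibiotic changed the tissue. Of the 10 genes, 5 rose (Il1rn, Socs3, Osmr, Stat3 and Il6st) and 3 fell (Lifr, Il1rap and Il6ra), while Jak1 and Il1r1 did not pass. Over all genes tested 32.7% passed, 12.7% higher and 19.9% lower. Of the 3515 genes called, 38.9% were higher, against 49.4% of the 3566 called after median-ratio scaling, which called the same number of these 10 genes. At an unadjusted p under 0.05 the counts were 8 of the 10 genes and 43.2% of all genes tested. The median log2 fold change of the 10 genes was 0.85, against -0.07 over all genes tested. The 10 genes were chosen with earlier results of these data known. Their counts and medians beside all genes, here and below, therefore describe the set and do not test it. The colistin and control libraries did not overlap for 9 of the 10 genes, all except Il1r1, against 46.9% of all genes tested. The exact permutation test, two-sided, gave p = 0.1 for each of these 9, and 3 libraries against 3 allow no smaller p. In bulk tissue, fewer cells of a type and less RNA per cell cannot be told apart.

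**Figure D1:**
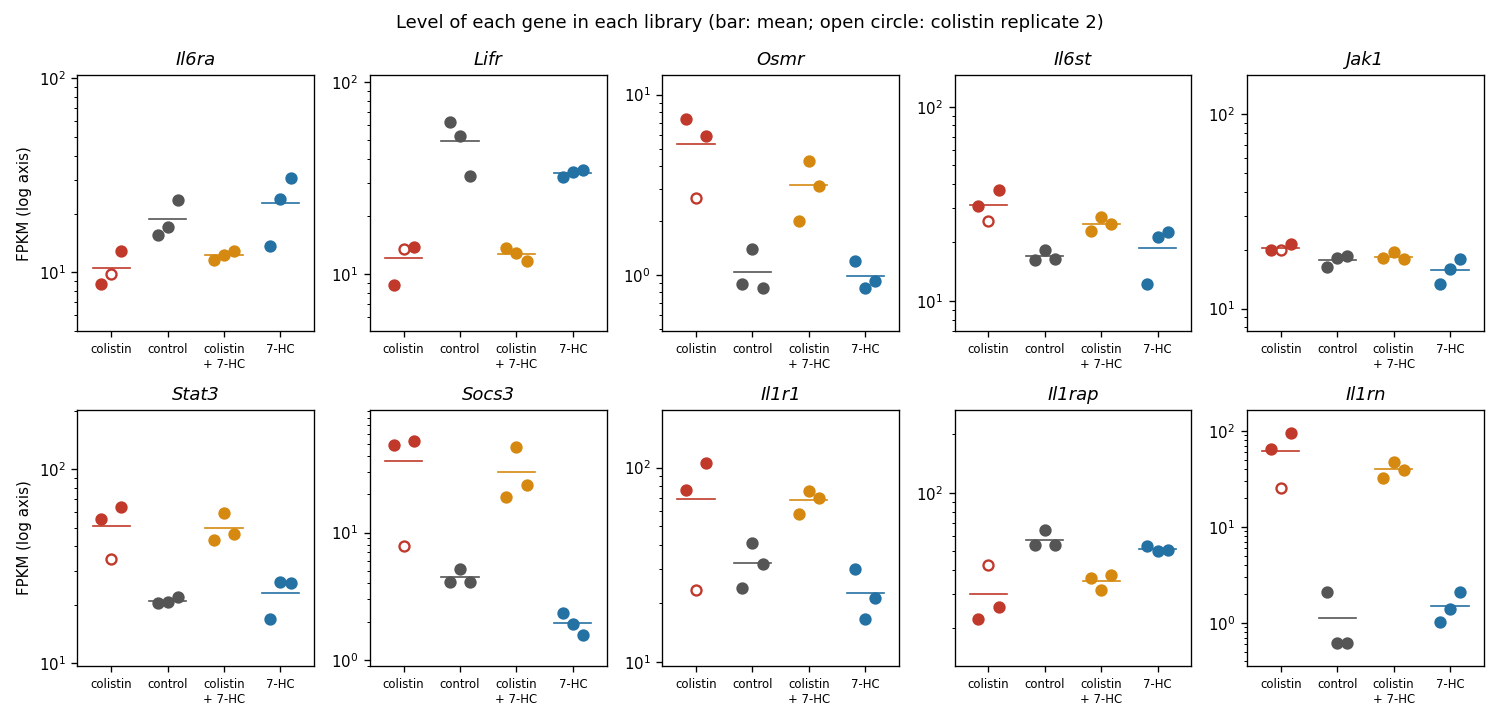
Level of each of the 10 genes in each library, in FPKM on a log axis, by group; points are libraries, bars are group means, and the open circle is colistin replicate 2. Il1rn lay between 25.14 and 95.26 FPKM in colistin and between 0.62 and 2.11 in control, and Lifr between 8.86 and 13.87 in colistin and between 32.39 and 62.18 in control.

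The ligand-binding receptors of the IL-6 family moved in opposite directions. Lifr, the receptor for LIF, was at 8.86, 13.60 and 13.87 FPKM in colistin, against 62.18, 52.65 and 32.39 FPKM in control. Every colistin library was below every control library, and the means were 12.1 ± 2.82 FPKM in colistin and 49.1 ± 15.2 FPKM in control (SD, n = 3 each), a ratio of 0.247. Its log2 fold change was -1.95 (SE 0.22, adjusted p = 9.97e-05 from limma), which placed it 201st from the bottom of the 10764 genes. Osmr, the receptor for oncostatin M, was at 7.36, 2.66 and 5.93 FPKM in colistin, against 0.89, 1.39 and 0.85 FPKM in control. The groups did not overlap, and the lowest colistin library was replicate 2. Osmr rose by 1.83 on the log2 scale (SE 0.32, adjusted p = 0.00135). Lifr and Osmr are neighbours on mouse chromosome 15, at 7090610 to 7197489 and 6813568 to 6874968.

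The proportion of Lifr to Osmr did not overlap between libraries with and without colistin. Lifr exceeded Osmr by between 1.20 and 5.11 times in colistin, against 37.9 to 69.9 times in control. In colistin + 7-HC the range was 3.01 to 6.87 times, against 27.1 to 40.2 times in 7-HC. These ratios restate the 2 fold changes and were not tested.

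Il6ra (chromosome 3, 89869324 to 89913196), which binds IL-6, was at 8.69, 9.81 and 12.94 FPKM in colistin, against 15.58, 17.04 and 23.59 FPKM in control. The groups were separate but close to each other. The log2 fold change of Il6ra was -0.81 (SE 0.26, adjusted p = 0.0320). This call was lost without control replicate 2 or 3 or without colistin replicate 1 or 2, where the adjusted p reached 0.116 at most. Il6st (chromosome 13, 112464070 to 112506860), the shared chain gp130, moved the other way, with 30.85, 25.71 and 37.02 FPKM in colistin, against 16.29, 18.34 and 16.33 FPKM in control. All 3 colistin libraries were above the 3 control libraries. The log2 fold change of Il6st was 0.84 (SE 0.21, adjusted p = 0.00943), and it passed with any library left out. Il6st exceeded Il6ra by between 2.62 and 3.55 times in colistin, against 0.69 to 1.08 times in control.

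Of the signalling components, Jak1 (chromosome 4, 101151974 to 101265282), the kinase bound to gp130, had the narrowest range, with 20.09, 20.02 and 21.60 FPKM in colistin, against 16.43, 18.14 and 18.57 FPKM in control. The groups did not overlap, yet the log2 fold change was 0.21 (95% interval -0.04 to 0.47, adjusted p = 0.187) and did not pass. Stat3 (chromosome 11, 100886806 to 100939594) was at 55.17, 34.45 and 63.46 FPKM in colistin, against 20.50, 20.61 and 21.85 FPKM in control. The control libraries lay close together, and colistin replicate 2 was the lowest of the colistin libraries while still above them. Stat3 rose by 1.22 on the log2 scale (SE 0.23, adjusted p = 0.00211).

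Socs3 (chromosome 11, 117966079 to 117970336), the feedback inhibitor whose promoter stretch is shown above, was at 48.95, 7.84 and 52.96 FPKM in colistin, against 4.12, 5.15 and 4.10 FPKM in control. Colistin replicates 1 and 3 were far above the control libraries, and replicate 2 was just above the highest of them. For Socs3 the log2 fold change was 2.51 (SE 0.58, adjusted p = 0.00676), and 3.38 (adjusted p = 1.68e-05) without colistin replicate 2. Relative to Stat3, Socs3 lay between 0.23 and 0.89 in colistin, against 0.19 to 0.25 in control, and the lowest colistin ratio, that of replicate 2, fell within the control range.

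The IL-1 receptor genes also differed in direction. Il1rn (chromosome 2, 24336860 to 24351491), the receptor antagonist, was at 65.41, 25.14 and 95.26 FPKM in colistin, against 2.11, 0.62 and 0.62 FPKM in control. The lowest colistin library was far above the highest control library. The means were 61.9 ± 35.2 FPKM in colistin and 1.12 ± 0.86 FPKM in control (SD, n = 3 each), a ratio of 55.5, and the log2 fold change was 5.20 (SE 0.45, adjusted p = 1.61e-05), the 9th highest of the 10764 genes. It ranged from 4.79 to 5.74 with 1 library left out.

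Il1r1 (chromosome 1, 40222480 to 40316201), the signalling receptor, was at 76.38, 23.52 and 106.10 FPKM in colistin, against 23.93, 40.98 and 31.92 FPKM in control. Colistin replicates 1 and 3 were above every control library, while replicate 2 was below all of them. The log2 fold change was 0.86 (95% interval -0.12 to 1.84, adjusted p = 0.162). Without colistin replicate 2 it was 1.50 (adjusted p = 0.00172) and passed. Il1rap (chromosome 16, 26581509 to 26730128), the accessory chain, fell, with 22.34, 42.33 and 25.79 FPKM in colistin, against 53.76, 64.36 and 53.89 FPKM in control. Every colistin library was below every control library, replicate 2 being the nearest to them. For Il1rap the log2 fold change was -0.97 (SE 0.20, adjusted p = 0.00323).

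In colistin the antagonist stood at a level close to that of its receptor. Il1rn was between 0.86 and 1.07 times Il1r1 in colistin, against 0.015 to 0.088 times in control. It was the 1 ratio of the 5 examined in which colistin replicate 2 was the colistin library farthest from control. In colistin + 7-HC it was 0.56 to 0.63, against 0.034 to 0.099 in 7-HC. Il1r1 was 0.56 to 4.11 times Il1rap in colistin, against 0.45 to 0.64 times in control, with replicate 2 the lowest. The ratios were not tested.

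**Figure D2:**
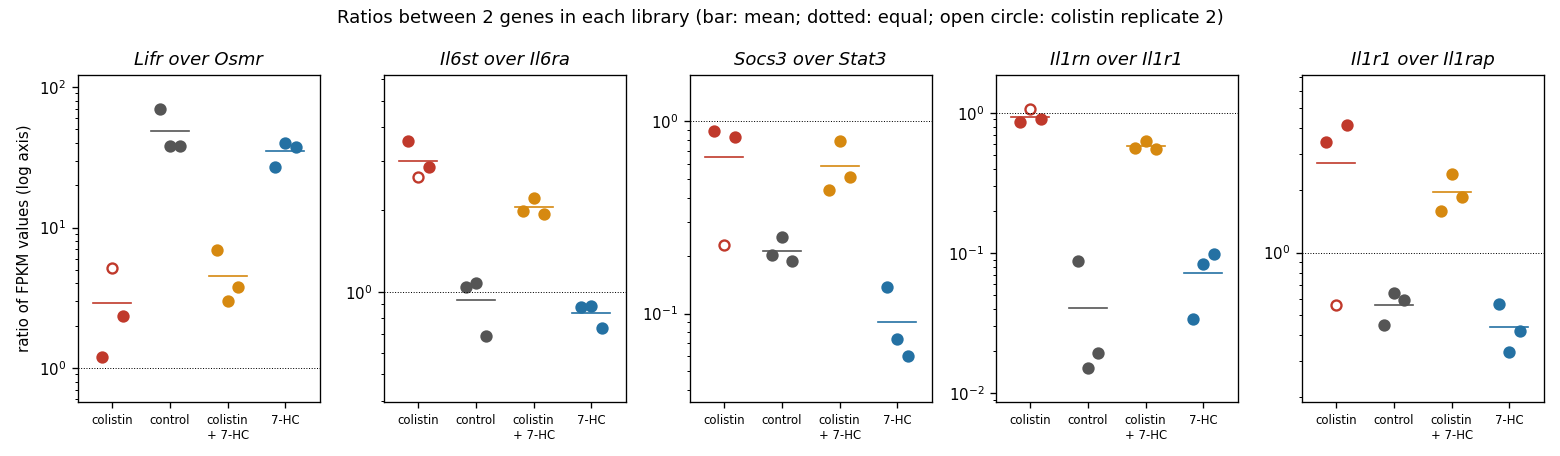
Ratios of FPKM values between 2 genes in each library, on log axes, by group; points are libraries, bars are group means, the dotted line marks equal levels and the open circle is colistin replicate 2. Lifr over Osmr lay between 1.20 and 5.11 in colistin and between 37.9 and 69.9 in control, and Il1rn over Il1r1 between 0.86 and 1.07 in colistin and between 0.015 and 0.088 in control.

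Colistin replicate 2 took a different place for each gene. It lay 114% of the way from the control mean to the mean of the other 2 colistin libraries for Il6ra, 86.2% for Lifr, 75.7% for Jak1, 71.6% for Il1rn and 60.2% for Il6st. The share was 47.6% for Stat3, 47.3% for Osmr, 34.7% for Il1rap, 22.4% for Socs3 and -27.7% for Il1r1. Without it 8 of the 10 genes still passed, and 5 of these 8 were under 50%, against 35.4% of all 3753 genes called without this library. Il1r1 was among the 8 in place of Il6ra, whose log2 fold change was then -0.77 (adjusted p = 0.0657).

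**Figure D3:**
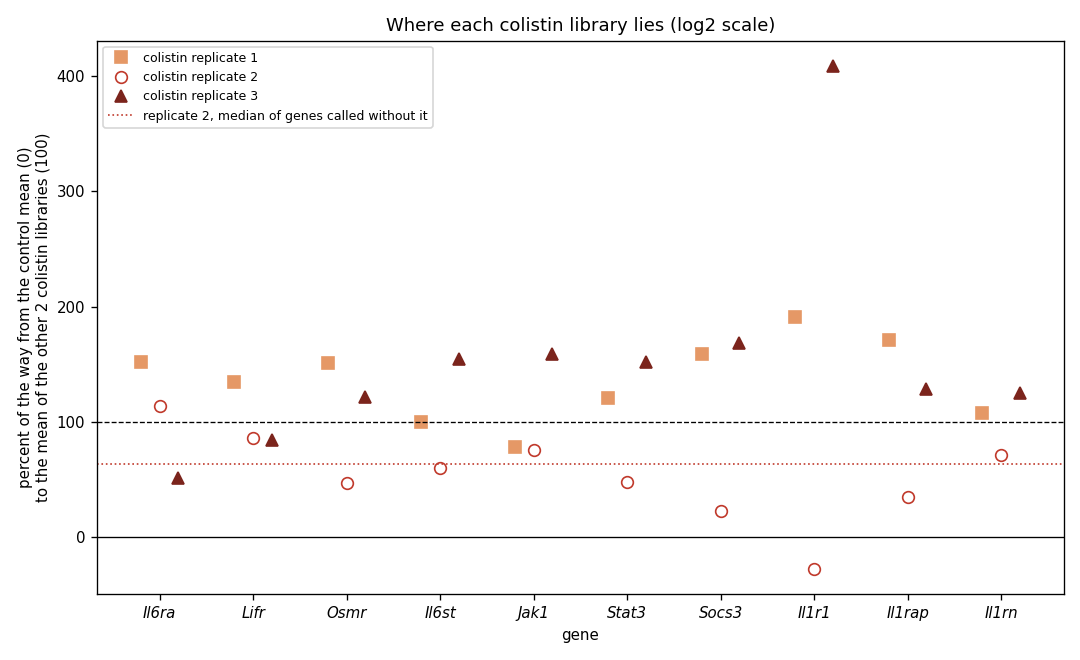
Place of each colistin library for each gene, in percent of the way on the log2 scale from the control mean (0) to the mean of the other 2 colistin libraries (100); the dotted line is the median of 63.2% for replicate 2 over the 3753 genes called without it. Replicate 2 lay at 22.4% for Socs3 and at -27.7% for Il1r1, and at 114% for Il6ra.

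Colistin + 7-HC against 7-HC asked the same of colistin in mice given 7-HC, and shared no library with colistin against control, although both used the same estimate of spread. Of the 10 genes, 5 rose (Il1rn, Socs3, Il1r1, Osmr and Stat3) and 2 fell (Lifr and Il6ra). Over all genes tested 31.1% passed, 14.5% higher and 16.6% lower. At an unadjusted p under 0.05 the counts were 9 of the 10 genes and 42.1% of all genes tested. The libraries of the 2 groups did not overlap for 9 of the 10 genes, all except Jak1, against 46.5% of all genes tested. The median log2 fold change was 0.78 over the 10 genes and -0.01 over all genes tested.

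In this comparison Il1rn was at 32.54, 47.94 and 38.83 FPKM in colistin + 7-HC, against 1.03, 1.39 and 2.10 FPKM in 7-HC. All 3 libraries given colistin were far above the 3 others. The log2 fold change was 4.34 (SE 0.45, adjusted p = 6.23e-05). Socs3 was at 19.10, 46.98 and 23.89 FPKM in colistin + 7-HC, against 2.32, 1.92 and 1.56 FPKM in 7-HC, with no overlap. On the log2 scale it rose by 3.55 (SE 0.58, adjusted p = 0.00107). Il1r1 was at 57.47, 75.63 and 69.95 FPKM in colistin + 7-HC, against 30.20, 16.58 and 21.25 FPKM in 7-HC, so that these groups, unlike colistin and control, did not overlap. Its log2 fold change was 1.59 (SE 0.45, adjusted p = 0.0192), and the call was lost without 7-HC replicate 2 or 3 or without colistin + 7-HC replicate 2 or 3, where the adjusted p reached 0.0689 at most.

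Lifr was at 13.74, 12.98 and 11.71 FPKM in colistin + 7-HC, against 32.21, 34.13 and 34.79 FPKM in 7-HC. The 3 libraries of each group lay close together. The log2 fold change of Lifr was -1.36 (SE 0.22, adjusted p = 0.00110). Osmr was at 2.0, 4.31 and 3.10 FPKM in colistin + 7-HC, against 1.19, 0.85 and 0.93 FPKM in 7-HC, and rose by 1.24 on the log2 scale (SE 0.32, adjusted p = 0.0127). Leaving out colistin + 7-HC replicate 2, its highest library, ended the call, at 1.02 (adjusted p = 0.0561). Stat3 was at 43.34, 59.08 and 46.50 FPKM in colistin + 7-HC, against 16.88, 26.16 and 25.80 FPKM in 7-HC, and rose by 1.11 on the log2 scale (SE 0.23, adjusted p = 0.00396).

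Il6ra was at 11.61, 12.25 and 12.95 FPKM in colistin + 7-HC, against 13.76, 24.00 and 30.52 FPKM in 7-HC, and fell by 0.79 on the log2 scale (SE 0.26, adjusted p = 0.0357). The 7-HC libraries were spread widely, the lowest of them just above the highest colistin + 7-HC library, and the call was lost without 7-HC replicate 2 or 3 or without any colistin + 7-HC library (adjusted p up to 0.131). The remaining 3 genes did not pass. Il6st was at 22.98, 27.05 and 24.87 FPKM in colistin + 7-HC, against 12.16, 21.28 and 22.47 FPKM in 7-HC, a log2 fold change of 0.46 (95% interval 0.002 to 0.91, adjusted p = 0.117). Il1rap was at 36.16, 31.55 and 37.63 FPKM in colistin + 7-HC, against 53.34, 49.97 and 50.83 FPKM in 7-HC, a log2 fold change of -0.55 (95% interval -0.97 to -0.12, adjusted p = 0.0529). The groups did not overlap for either gene. Jak1 was at 18.17, 19.55 and 17.90 FPKM in colistin + 7-HC, against 13.34, 16.05 and 18.02 FPKM in 7-HC, with overlap and a log2 fold change of 0.23 (adjusted p = 0.151).

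**Figure D4:**
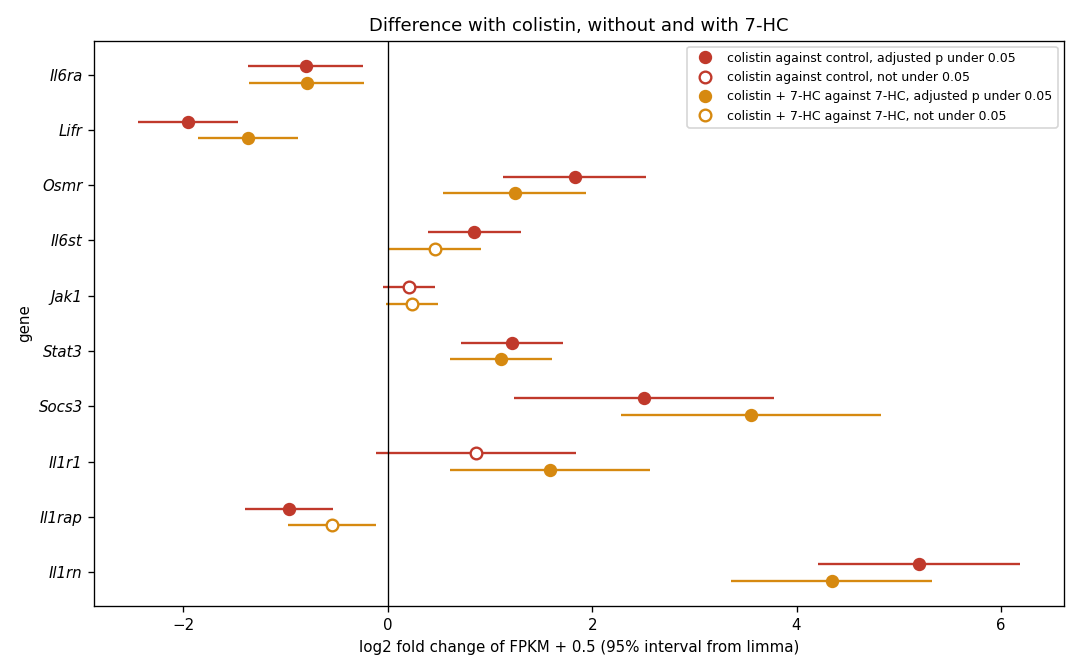
Log2 fold change of FPKM + 0.5 for each gene, with its 95% interval from limma, in the 2 comparisons of mice with and without colistin; filled points had an adjusted p under 0.05 and open points did not. Il1rn had the largest values, 5.20 and 4.34, and Lifr the lowest, -1.95 and -1.36.

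Colistin + 7-HC against colistin asked whether 7-HC changed the levels reached with colistin, and it used the same colistin libraries as colistin against control. In limma none of the 10 genes passed, and none had an unadjusted p under 0.05, against 0.00929% (1 gene) and 12.4% (1337 genes) of all genes tested. The largest differences were those of Osmr, with a log2 fold change of -0.63 (95% interval -1.33 to 0.07, adjusted p = 0.455), and Il1rn, at -0.45 (-1.44 to 0.53). Il6st was at -0.30 (-0.76 to 0.15), Il1rap at 0.27 (-0.16 to 0.70), Il6ra at 0.24 (-0.33 to 0.80) and Il1r1 at 0.22 (-0.76 to 1.20). Jak1 was at -0.15 (-0.40 to 0.11), and it was the 1 gene of the 10 whose groups did not overlap, against 16.9% of all genes tested. Lifr was at 0.10 (-0.39 to 0.59), Socs3 at 0.01 (-1.26 to 1.28) and Stat3 at -0.01 (-0.51 to 0.49).

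The intervals of Socs3, Il1r1 and Il1rn were the widest in this comparison. Colistin replicate 2 was below every colistin + 7-HC library for Socs3, Il1r1 and Il1rn, and replicates 1 and 3 were above every one of them for the same 3 genes. Without colistin replicate 2, the log2 difference was -1.02 for Osmr (adjusted p = 0.0514), -0.998 for Il1rn (adjusted p = 0.157), -0.86 for Socs3 (adjusted p = 0.138) and -0.42 for Il1r1 (adjusted p = 0.452). That of Il1rap, 0.54 (adjusted p = 0.0442), then passed, as 1 of 472 genes called over the whole table.

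7-HC against control asked what 7-HC and its vehicle did alone. In limma none of the 10 genes passed or had an unadjusted p under 0.05, against 0.167% (18 genes, 0.0743% higher and 0.0929% lower) and 9.59% of all genes tested. Socs3 was lower in every 7-HC library (2.32, 1.92 and 1.56 FPKM) than in every control library (4.12, 5.15 and 4.10 FPKM), with a log2 fold change of -1.03 (95% interval -2.30 to 0.24, adjusted p = 0.614). The interval uses a spread pooled over the 4 groups, with an SD of 24.97 FPKM in colistin, against 0.38 in 7-HC and 0.60 in control. Over the alternatives that kept every library, the lowest limma adjusted p for Socs3 was 0.101. Il1rap was the other gene without overlap, at 53.34, 49.97 and 50.83 FPKM in 7-HC, against 53.76, 64.36 and 53.89 FPKM in control, where 15.9% of all genes tested did not overlap. Lifr had a log2 fold change of -0.48 (95% interval -0.97 to 0.005, adjusted p = 0.528) and Il1r1 one of -0.51 (-1.49 to 0.47). The others lay between -0.17 (Jak1) and 0.40 (Il1rn).

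Whether the difference made by colistin changed with 7-HC was tested by the interaction of both. None of the 10 genes passed, and none had an unadjusted p under 0.05, against 0.297% (32 genes, 0.158% with a positive and 0.139% with a negative interaction) and 11.5% of all genes tested. The estimate was 1.05 for Socs3 (95% interval -0.75 to 2.84), 0.73 for Il1r1 (-0.65 to 2.11), 0.59 for Lifr (-0.11 to 1.28), -0.59 for Osmr (-1.58 to 0.40) and -0.85 for Il1rn (-2.25 to 0.54). The fall of Il1rap and the rise of Il6st, which passed in colistin against control alone, had interactions of 0.42 (-0.19 to 1.02) and -0.39 (-1.03 to 0.26), so a difference between the settings was not shown.

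The counts of the following 6 lists stand beside 12.7% higher and 19.9% lower over all genes tested in colistin against control, and 14.5% higher and 16.6% lower in colistin + 7-HC against 7-HC, and none of the lists was tested as a whole. The ligands of these receptors were mostly near the bottom of the scale. Of 16 IL-6 and IL-1 family ligands 7 were tested, and 1 rose and 1 fell in colistin against control, where 32.7% of all genes passed. Il6 did not exceed 0.05 FPKM in any library and was listed at 0 in all colistin + 7-HC and 7-HC libraries, Osm did not exceed 0.06 and Lif did not exceed 0.59. Il1b lay between 0.29 and 1.70 FPKM and Il1a between 0.98 and 3.13. Of the other ligands, Ctf1 lay between 2.66 and 4.45 FPKM and Il36g between 1.58 and 10.24, and neither passed in the comparisons of colistin. Transcripts of the ligands could be made in other tissues, which were not sampled. Clcf1, a ligand of the CNTF receptor, rose to 3.21 ± 1.27 FPKM in colistin, against 0.66 ± 0.05 FPKM in control (log2 fold change 1.60, adjusted p = 0.000942). Il18, an IL-1 family cytokine, fell to 6.15 ± 0.39 FPKM in colistin, against 13.8 ± 2.30 FPKM in control (-1.09, adjusted p = 0.000106). In colistin + 7-HC against 7-HC, Clcf1 (1.89) rose, Il18 (-0.86) fell, and Il33 (0.56), an alarmin, rose as well, a call lost without any of 4 libraries. Clcf1 and Il33 entered the test only with libraries given colistin.

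Of 12 other receptors of both families 4 were tested, and 2 rose. Il18bp, the soluble protein that neutralises IL-18, rose to 57.5 ± 19.2 FPKM in colistin, against 10.5 ± 2.61 FPKM in control (log2 fold change 2.37, adjusted p = 4.86e-05), and Sigirr, an inhibitory receptor of the IL-1 family, rose by 0.42 on the log2 scale, a call lost without any of 4 libraries. Both also rose in colistin + 7-HC against 7-HC (2.05 and 0.55), where Il11ra1, the IL-11 receptor, fell (-0.66). The decoy receptor Il1r2 did not reach the filter.

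Of 8 tested genes of the JAK and STAT family 2 rose and 2 fell in colistin against control. Jak3, the kinase of the common gamma chain receptors, rose by 1.74 (adjusted p = 1.88e-05) and Stat2 by 0.63, while Stat5b, the growth hormone STAT, fell by 0.56. The call of Stat2 had an adjusted p = 0.0478 and was lost without control replicate 1 or 3 or without any 1 colistin library. In colistin + 7-HC against 7-HC, Jak3 (1.71) and Stat2 (1.16) rose and none fell.

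Of 15 tested inhibitors and phosphatases of JAK-STAT signalling, 4 rose and 3 fell in colistin against control, against 12.7% and 19.9% of all genes. Socs1, a relative of Socs3 that inhibits JAK kinases, was at 13.43, 0.59 and 13.07 FPKM in colistin, against 0.55, 0.45 and 0.54 FPKM in control. As with Socs3, replicates 1 and 3 were far above control and replicate 2 was close to it. Its log2 fold change was 2.54 (adjusted p = 0.0305), and the call was lost without control replicate 1, 2 or 3 or colistin replicate 1 or 3. Socs1 reached 1 FPKM in no control or 7-HC library, so that it entered the test only through libraries given colistin. Socs2, the growth hormone feedback gene, fell by 1.36 on the log2 scale, while the phosphatase genes Ptpn2 and Ptpn1 rose by 0.61 and 0.59. The call of Socs2 was lost without control replicate 2 or 3 or colistin replicate 1, and that of Ptpn1 without any of 5 libraries. In colistin + 7-HC against 7-HC, Socs6 (0.53), Socs5 (0.51) and Ptpn2 (0.62) rose and none fell, the call of Socs5 being lost without any of 5 libraries.

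All 16 adaptors and kinases of the IL-1 receptor were tested, and 5 rose and 1 fell in colistin against control, so that 6 of 16 passed, against 32.7% of all genes. Irak3, the IRAK family member that restrains signalling, rose to 20.7 ± 5.43 FPKM in colistin, against 0.39 ± 0.12 FPKM in control (log2 fold change 4.56, adjusted p = 3.15e-07). No control or 7-HC library held Irak3 above 0.51 FPKM, so it passed the filter through libraries given colistin. Myd88, the central adaptor, rose by 1.17 and Ikbkg, the regulatory subunit of the IkB kinase, by 1.06, while its catalytic subunit Chuk fell by 0.71. In colistin + 7-HC against 7-HC, Irak3 (4.43), Myd88 (0.99), Ikbkg (0.88), Tab2 (0.77) and Irak1 (0.37) rose and none fell, the calls of Tab2 and Irak1 being lost without any of 4 and of 5 libraries.

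Of 18 tested STAT3 target genes, 9 rose and 4 fell in colistin against control, against 12.7% higher and 19.9% lower of all genes, with a median log2 fold change of 0.83, against -0.07 over all genes tested. Steap4, a metalloreductase, rose to 779 ± 382 FPKM in colistin, against 24.4 ± 2.56 FPKM in control (log2 fold change 4.82, adjusted p = 6.12e-06). Lrg1, a secreted acute-phase glycoprotein, rose by 3.48, Timp1, an inhibitor of metalloproteinases, by 2.88 and Icam1, an adhesion molecule of leukocyte traffic, by 2.80. Timp1 was at 21.5, 1.01 and 3.09 FPKM in colistin and at 0.45, 0 and 0.13 FPKM in control, so its size rested on colistin replicate 1, without which it was 1.80, and it entered the test only through libraries given colistin. The largest fall was that of Ccnd1, cyclin D1, at -2.13 (adjusted p = 0.00235).

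In colistin + 7-HC against 7-HC, 8 STAT3 targets rose and 3 fell. Steap4 (4.66), Lrg1 (3.64), Icam1 (2.74), Junb (2.32), Bcl3 (1.51), Cebpd (1.47), Pim1 (1.08) and Il4ra (0.88) rose, while Ccnd1 (-1.66) and Vegfa (-0.44) were among those that fell. The calls of Pim1 and Vegfa were lost without any of 3 and of 4 libraries. No gene of the 6 lists passed in limma in colistin + 7-HC against colistin, in 7-HC against control or in the interaction. Of the 34 list genes called in colistin against control, 20 passed with each of the 6 libraries left out in turn, as did 21 of the 27 called in colistin + 7-HC against 7-HC. Without colistin replicate 2, an alternative added after the data were seen, 10 STAT3 targets rose and 4 fell, 7 adaptors and kinases rose and 1 fell, and 4 inhibitors rose and 2 fell. Of the ligands 1 rose and 2 fell, of the other receptors 1 rose, and of the JAK and STAT genes 1 rose and 1 fell.

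**Figure D5:**
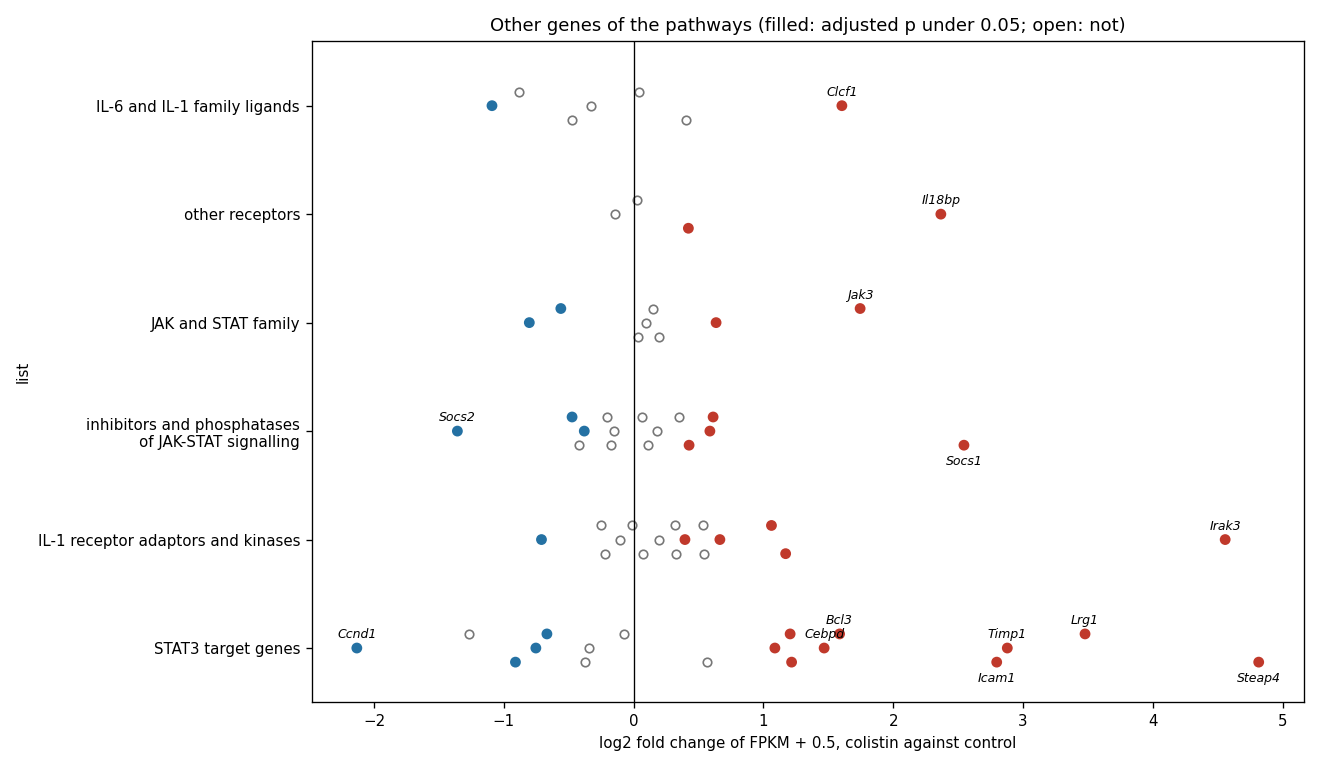
Log2 fold change of FPKM + 0.5 in colistin against control for the tested genes of the 6 lists, 1 point a gene; filled points had an adjusted p under 0.05 in limma, red higher and blue lower, and those of larger size are named. Irak3 (4.56) and Steap4 (4.82) stood farthest to the right and Ccnd1 (-2.13) farthest to the left.

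Some markers of other cells differed in the same comparisons, where 32.7% and 31.1% of all genes passed. Of 10 neutrophil markers 6 were tested, and 3 rose in colistin against control (S100a8, S100a9 and Retnlg). Of these, S100a8 and Retnlg reached 1 FPKM only in libraries given colistin. The other tested markers did not pass, at log2 fold changes of 0.34 (Csf3r), 0.15 (Cxcr2) and -0.22 (Ly6g). In colistin + 7-HC against 7-HC these 3 markers were at 0.35, -0.47 and -0.04 in that order and did not pass. Ly6g was lower in every colistin library than in every control library. The list summed to 31.7 to 55.3 FPKM in colistin, against 8.55 to 11.8 in control, and to 21.5 to 37.1 in colistin + 7-HC, against 8.17 to 11.1 in 7-HC, where Mpo and Camp were at 0. Of 8 macrophage markers 1 rose (Marco) and 1 fell (Clec4f), with sums of 81.9 to 198.0 FPKM in colistin, against 114.5 to 154.6 in control. Of 10 hepatocyte markers 7 fell and 1 rose, the fibrinogen gene Fgb. Of 7 endothelial markers 1 rose, of 8 stellate cell and fibroblast markers 1 fell, and none of 9 T, B and NK cell markers reached the filter. Among these lists 3 neutrophil and 2 macrophage markers rose and none fell in colistin + 7-HC against 7-HC, 3 endothelial and 1 stellate cell and fibroblast marker fell and none rose, and of the hepatocyte markers 1 rose and 5 fell. The part of these shifts in the levels of the 10 genes was not tested.

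The genes whose levels followed each of the 10 most closely over the 12 libraries were found by Pearson's r of log2(FPKM + 0.5), as a description. The libraries share their division into mice with and without colistin, which gives genes that moved with colistin a high r. The 2 nearest were Steap4 (0.990) and Kdm4a (0.985) for Il1rn, Gbp2b (0.988) and Dhx33 (0.982) for Lifr, and Nicn1 (0.987) and Creld2 (0.986) for Osmr. They were Hpgd (0.983) and Dnase2b (0.981) for Il1rap, Tifa (0.982) and Snd1 (0.981) for Socs3, and Kdm3b (0.981) and Kdm4a (0.978) for Stat3. Il6st was followed most closely by Pomt2 (0.965) and Ptprg (0.942), and Il6ra by Pdpr (0.946) and Marchf6 (0.943). Il1r1 was nearest to Gas2l1 (0.939) and, of the 10 genes themselves, to Socs3 (0.930), with which it shared the low value of colistin replicate 2. Jak1 had the lowest values, with Gm39469 (0.928) and Kmt5b (0.926).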

How the data were processed

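RNA from 3 mice of each of 4 groups was sequenced on a BGISEQ-500. The authors used SOAPnuke for read filtering, HISAT2 2.0.4 and Bowtie2 2.2.5 for alignment (GRCm38.p6), RSEM 1.2.12 for expression levels and DESeq2 1.4.5 for their own tests. No unit stands in the header of the deposited table. Since values are fractional and libraries sum unequally, they were taken as FPKM made by the authors. Of 22899 genes 5161 were blank throughout. Read depth is unknown, so no counting interval was computed.

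A gene was kept if 3 or more libraries had 1 FPKM or above (10764 genes). A single limma model (version 3.58.1, R 4.3.3, trended prior variance) was fitted to log2(FPKM + 0.5) of all 12 libraries with a term for each group, and Benjamini-Hochberg adjustment covered all genes of each of 5 comparisons, with calls under 0.05. The fit was also run on simulated data with normal noise of equal spread in all groups and no library set apart. That run does not show how the fit handles a library such as colistin replicate 2. The limma p-values measure only the spread between mice of the same group, pooled over the 4 groups and drawn toward the trend over all genes. No list was given a test of its own. The genes and lists were chosen with earlier results of these data known. Of each list, the text names up to 4 called genes with the largest change in colistin against control, and any called in another comparison; a few genes that this rule names are not reported here. Il36a, Il36b and Il36g were matched by RefSeq synonyms. Alternatives were other filters, pseudocounts of 0.1 and 1, only the groups compared, the replicate number as a block, median-ratio scaling and each library left out. Strand is not given in the sources used here, so overlapping genes can share reads. Promoters came from RefSeq and figures from matplotlib 3.10.9 in Python 3.11.15.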

Additional observations from a re-analysis of the deposited data

How the results depend on the processing

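In colistin against control, 8 of the 10 genes passed; 7 did without the filter on low values, 6 where every library had to reach 1 FPKM (Osmr and Il1rn then not being tested), and 7 to 8 with 1 library left out. In colistin + 7-HC against 7-HC, 7 passed; 6 did without the filter and with the every-library filter, 8 after median-ratio scaling and 4 to 7 with 1 library left out, the lowest without colistin + 7-HC replicate 2, where Il6ra, Osmr and Il1r1 were lost. In this comparison Il1rap passed with the every-library filter (adjusted p = 0.0499), with only the groups compared (0.0122) and after scaling (0.04999), and Il6ra did not pass with only the groups compared (0.0507) or without the filter (0.0608). In colistin against control without the filter, Il6ra had an adjusted p = 0.0552. Of these 10 genes 0 to 1 passed in colistin + 7-HC against colistin with 1 library left out, Il1rap without colistin replicate 2.

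Of all genes, 1 was called in colistin + 7-HC against colistin; 3 were without the filter, 0 with the every-library filter, with a pseudocount of 0.1 and with only the groups compared, and 0 to 472 with 1 library left out, the most without colistin replicate 2. In 7-HC against control 18 were called, with 11 under the every-library filter, 0 with only the groups compared and 4 to 61 with 1 library left out. In the interaction 32 were called, with 6 without the filter, 5 with a pseudocount of 0.1 and 0 to 136 with 1 library left out.

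Differences that did not pass changed sign in places. After scaling, Socs3 in colistin + 7-HC against colistin was -0.0086, and the interactions of Il6ra and Jak1 were -0.048 and -0.037. With 1 library left out, the ranges in colistin + 7-HC against colistin were -0.10 to 0.21 for Lifr, -0.26 to 0.17 for Stat3, -0.86 to 0.48 for Socs3 and -0.42 to 0.66 for Il1r1. In 7-HC against control they were -0.019 to 0.54 for Il6ra, -0.073 to 0.36 for Il6st, -0.13 to 0.11 for Osmr and -0.0066 to 0.30 for Stat3, and in the interaction -0.31 to 0.25 for Il6ra, -0.36 to 0.073 for Stat3 and -0.091 to 0.12 for Jak1. The cause was not tested.

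Libraries with the same replicate number showed no strong shared deviation, their deviations correlating above 0.1 in 2 of 18 pairs. Whether the numbers pair the libraries cannot be settled from these correlations. With the replicate block 8 and 7 of the 10 genes passed in the 2 comparisons of colistin, as without it, and the calls over all genes were 3197 and 3018, against 3515 and 3349; 8 genes were called in 7-HC against control and 0 in the interaction. Read depth is unknown, so the precision of low values such as Osmr and Il1rn in control cannot be given.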
